A study of Mus musculus with 46 samples.

Results

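Fibroblasts surround themselves with extracellular matrix and pull on it through actin fibers, and 9 mouse genes for these tasks were followed through the loss of fibroblast identity: Fn1, Fbn1, Postn, Sparc, Thbs1, Lox, Acta2, Tagln and Vim. The genes were listed by name, by a rule that uses no measured value, but with earlier results of these data already known. They are 9 of the 22238 protein-coding genes of the GENCODE vM1 annotation on the mm9 genome build. For each gene and library, all listed peaks that touched the gene or the 1 kb on either side of it were taken, and their normalized tag counts, in tags per 10 M sequenced tags, were summed. On mm9 the genes lie at chr1:71632094-71699774 (Fn1), chr2:125126330-125333729 (Fbn1), chr3:54165031-54194961 (Postn), chr11:55208002-55233582 (Sparc), chr2:117937612-117952869 (Thbs1), chr18:52675723-52689521 (Lox), chr19:34315580-34329826 (Acta2), chr9:45737711-45744141 (Tagln) and chr2:13495554-13504453 (Vim). All 9 genes were annotated, and each had at least 1 peak of each of the 3 marks at the start of conversion.

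ChIP-Seq had been done for H3.3, a variant of histone H3, and for H3 carrying trimethylated lysine 4 (H3K4me3) or trimethylated lysine 36 (H3K36me3). Mouse embryonic fibroblasts (MEFs) from mid-gestation embryos, carrying an Oct4-GFP reporter, were infected with pMXs retroviruses for Oct4, Sox2, Klf4 and c-Myc and became induced pluripotent stem cells (iPSCs). D0 cells had not been converted, D3 cells were unsorted cells of day 3, cells of days 6 and 9 were sorted on Thy-1, a surface protein of fibroblasts, and cells of days 12 and 16 on SSEA-1, an antigen of pluripotent cells. The successful route runs through the cells without Thy-1 (D6T-, D9T-) and then those with SSEA-1 (D12S+, D16S+). Their counterparts (D6T+ and D9T+ early, D12S- and D16S- late) make up the unsuccessful route, and ESD3 is a mouse embryonic stem cell line. In the other system, fibroblasts depleted of cells with hematopoietic surface markers received retroviral Scl, Lmo2, Runx1 and Bmi1 and grew on inactivated OP9 stromal cells, and H3.3 was profiled in MEF (before induction), D4 (day 4) and in fully transdifferentiated cells with (cKit+) or without (cKit-) the receptor cKit, which marks blood progenitors. The retroviral factors were not restricted to a cell type, and any OP9 cells carried into a sorted fraction were not counted. Of 46 samples, 30 had peak lists and 16 were inputs. Each group of each mark had 1 library, so no difference could be set against replicate spread and no test between groups was possible. The intervals given are 95% exact Poisson intervals for sums and exact conditional binomial intervals for ratios, and both cover counting error only.

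H3.3 replaces canonical H3 outside DNA replication and is laid down over transcribed gene bodies and regulatory elements. H3K4me3 marks active or poised start sites, and H3K36me3 is added in the wake of elongating RNA polymerase and so builds up towards the end of transcribed genes. Among the 9 genes, Fn1 (fibronectin), Fbn1 (fibrillin-1, the backbone of microfibrils), Postn (periostin), Sparc (osteonectin) and Thbs1 (thrombospondin-1) encode secreted glycoproteins of the matrix. Lox encodes lysyl oxidase, which cross-links collagen and elastin. Acta2 (smooth muscle alpha-actin) and Tagln (transgelin, or SM22-alpha) encode proteins of the contractile apparatus of smooth muscle and myofibroblasts, and Vim encodes vimentin, the intermediate filament protein of mesenchymal cells. The RNA of these genes was not analysed here.

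Depth and enrichment differed between libraries. The reprogramming H3.3 libraries held 18.7 to 41.2 M tags, with 4.88% (D16S+) to 22.0% (D12S-) of tags in peaks, and the transdifferentiation libraries 46.7 to 91.8 M tags, with 1.65% (cKit+), 2.31% (cKit-), 7.64% (MEF) and 37.2% (D4) in peaks. For H3K36me3 the shares were 1.07% (D12S+), 1.99% (D16S+) and 2.88% (iPSCs) against 42.4% in D9T-. A sum of 0 means that no peak was listed, and the weakest H3.3 peak listed in any library held 3.54 to 5.59 tags per 10 M, so a weaker signal was not detectable. Because tags outside peaks are not in the lists, a second scale, the gene's share of the score of all peaks of its library, is given where it changes a comparison. For most single values along the route it is not given. The cell labels were checked with fixed marker lists: H3.3 peaks lay on 10 of 10 fibroblast markers in D0 and MEF, 2 of 10 in iPSCs and 1 of 10 in ESD3, while 10 of 10 pluripotency markers had a peak in iPSCs and ESD3 and 3 of 10 in D0. The hematopoietic label could not be seen in the same way, as 3 of 9 annotated hematopoietic markers had an H3.3 peak in cKit+ and 5 of 9 in cKit-, and Kit itself had none in either fraction. Ptprc, which encodes CD45, also had none in cKit+.

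The promoters of Postn, Acta2, Tagln and Vim are shown because they differ in H3K4me3 over the upstream bases. An H3K4me3 peak covered all 250 bases upstream of each in D0. In iPSCs a peak still covered those of Vim but none of the bases upstream of Postn, Acta2 and Tagln. The bases upstream of Vim lay under a peak in all 7 H3K4me3 libraries, those of Acta2 up to D9T-, and those of Tagln and 90.8% of those of Postn up to D3. The sequences are the 250 bases before the annotated gene start, read from the mm9 genome, 5′ to 3′ on the strand of the gene. Capitals mark a match to 1 of 4 motifs searched on both strands: the CArG box of serum response factor (CC, then 6 bases that are A or T, then GG), TGANTCA (AP-1), GGAATG (TEAD) and TATAAA (the TATA box), and no matches overlap here.
Postn, chr3:54164781-54165030, plus strand: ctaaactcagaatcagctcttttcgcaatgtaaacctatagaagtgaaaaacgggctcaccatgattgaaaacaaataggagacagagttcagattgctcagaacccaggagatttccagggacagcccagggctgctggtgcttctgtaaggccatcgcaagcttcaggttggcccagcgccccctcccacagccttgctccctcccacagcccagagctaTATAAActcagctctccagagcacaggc
Acta2, chr19:34329827-34330076, minus strand: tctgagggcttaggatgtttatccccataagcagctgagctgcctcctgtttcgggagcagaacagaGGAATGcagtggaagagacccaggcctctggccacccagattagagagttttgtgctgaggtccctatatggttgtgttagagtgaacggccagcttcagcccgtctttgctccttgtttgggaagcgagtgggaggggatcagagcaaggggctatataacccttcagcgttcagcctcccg
Tagln, chr9:45744142-45744391, minus strand: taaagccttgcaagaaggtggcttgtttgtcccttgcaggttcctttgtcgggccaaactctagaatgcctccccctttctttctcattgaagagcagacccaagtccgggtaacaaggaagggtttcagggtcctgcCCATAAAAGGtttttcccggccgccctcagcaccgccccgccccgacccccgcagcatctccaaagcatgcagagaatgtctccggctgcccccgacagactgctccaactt
Vim, chr2:13495304-13495553, plus strand: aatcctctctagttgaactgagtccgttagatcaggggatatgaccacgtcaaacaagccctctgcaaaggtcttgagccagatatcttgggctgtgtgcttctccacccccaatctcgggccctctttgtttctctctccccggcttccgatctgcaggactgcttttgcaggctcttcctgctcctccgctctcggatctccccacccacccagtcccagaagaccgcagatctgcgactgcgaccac
The CArG box lay 112 to 103 bases before the start of Tagln, and Fbn1 had another at 138 to 129 bases, so that 2 of 9 members matched against 1.35% of all 22238 promoters. No H3K4me3 peak lay on the 250 bases of Fbn1 in any of the 7 libraries, although peaks within 1 kb of its start summed to 419 in D0. Whether these bases are the promoter in use was not tested. TATAAA was found in Postn alone (12.3% of all promoters), GGAATG in Acta2 alone (11.4%) and TGANTCA in no member (6.00%), and Vim matched none of the 4. A match to these letters is a description of the sequence and not a binding site. Only exact matches were marked, so an unmarked sequence may still hold a site of this kind. In Acta2, ccctatatgg and ccttgtttgg each differ from the CArG pattern by 1 base, and tatataa lies near the start. The members' promoters held 2 (Fbn1) to 25 (Fn1) CpG dinucleotides, around the median of 8 over all promoters. Fn1 (25) and Thbs1 (16), which both kept an H3K4me3 peak over the whole promoter in iPSCs, held the most, but Sparc kept one with 4 and Vim with 10. Tagln, also with 10, kept none over these bases, though a peak of 9.89 lay within its gene window.

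In D0 fibroblasts 8 of the 9 genes carried H3.3 over 58.6% (Lox) or more of their windows, and Postn over 6.83%. Tags were counted per kb of gene window, each peak counted by the part of it inside, and on this scale Thbs1 (22.2 tags per 10 M per kb), Sparc (19.6), Vim (19.3), Acta2 (16.7), Fn1 (15.6) and Tagln (14.5) ranked between the 98.3rd and 99.96th percentiles of all genes. Fbn1 (10.2) and Lox (9.17) reached the 94.6th and 93.3rd percentiles, and Postn (0.951) the 57.2nd. Single H3.3 peaks spanned the whole windows of Thbs1 and Acta2, whereas 8 peaks covered 93.5% of the window of Fn1, 48 peaks 67.9% of that of Fbn1 and Postn had 4 separate peaks. Postn thus had the least H3.3 of the list although its H3K36me3 sum, 655, was the fourth largest of the 9.

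From D0 to iPSCs, H3.3 was lower by 2-fold or more on 9 of 9 members, against 41.6% of the 15732 genes with a peak in either library. The median member kept 0.310% of its D0 sum, while the median of all genes with a D0 peak was 54.1%, and among the 7951 genes that began with at least 50 tags per 10 M, 53.6% were lower by this fold. Measured as a share of all peak score, 9 of 9 members were also lower by the same fold, against 34.3% of genes. No H3.3 peak was listed in iPSCs for Postn, Thbs1, Lox or Acta2, and 5 of 9 members kept at least 1 peak, while 61.3% of all genes had one there. The stem cell line ESD3 had no peak on the same 4 genes and none on Fbn1, and 52.2% of all genes had a peak in it.

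**Figure D1:**
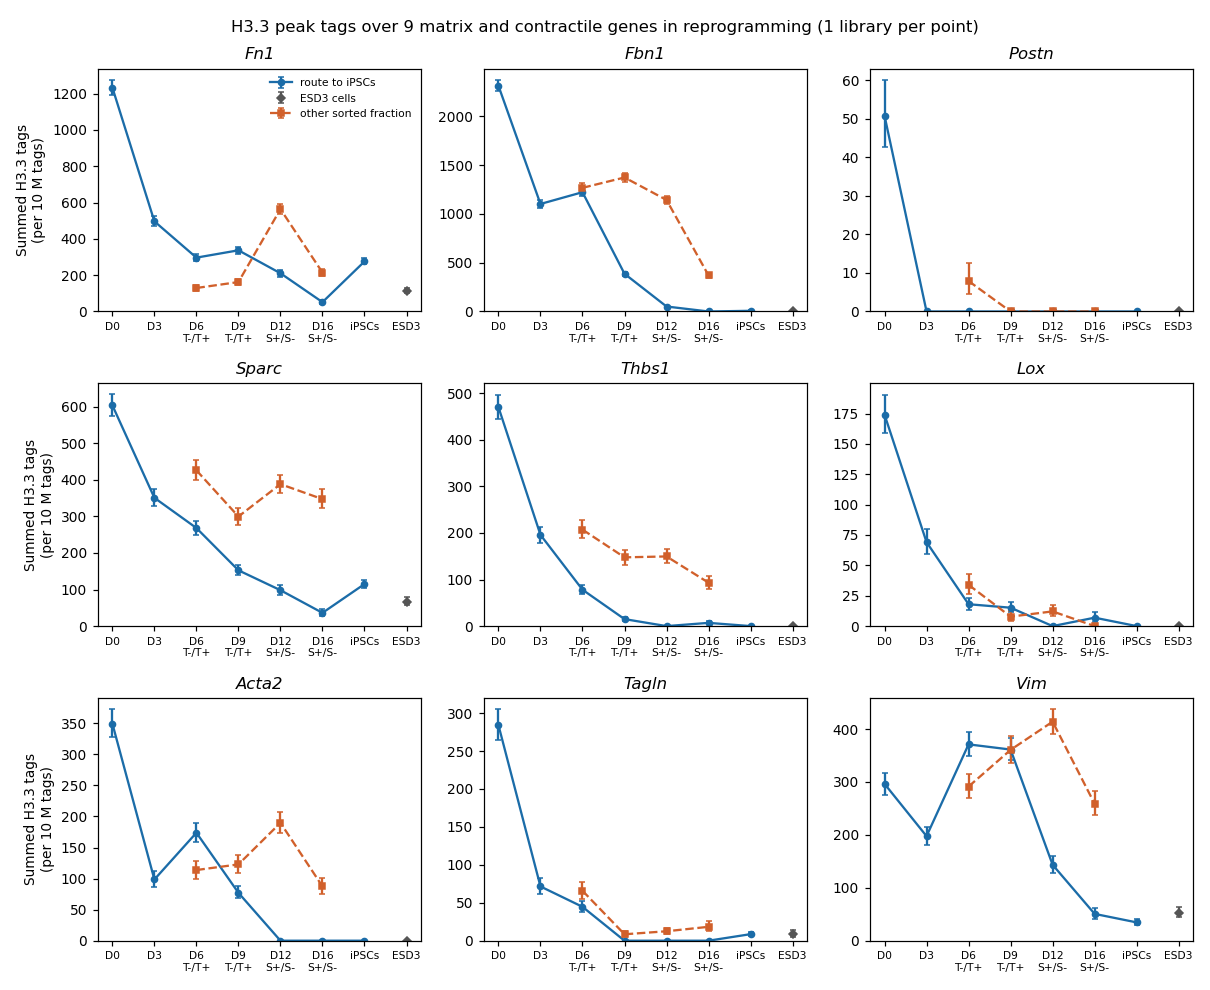
Summed H3.3 peak tags per 10 M tags (vertical axis, linear, from 0) over each gene in the 12 reprogramming libraries (horizontal axis), with circles for the route to iPSCs, squares for the fraction sorted away on the same day, diamonds for ESD3 cells and bars for 95% Poisson intervals of counting error. Thbs1 lies at 470 at D0 and 0 in iPSCs, whereas Vim lies at 371 at D6T- and 361 at D9T-, above its D0 value of 297.

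Fn1, which encodes fibronectin, had the largest H3.3 sum of the list in both kinds of pluripotent cells. Its sum was 1233 at D0, 496 at D3, 297 at D6T-, 337 at D9T-, 211 at D12S+, 51.5 at D16S+, 276 in iPSCs and 115 in ESD3. The iPSC value was 22.3% of D0, a 4.48-fold difference (interval 4.18 to 4.79), and it was higher than the value of D16S+, so Fn1 did not decline steadily along the route. On the unsuccessful route Fn1 held 129 at D6T+, 162 at D9T+, 564 at D12S- and 214 at D16S-. Fn1 was therefore higher in the Thy-1-negative cells on day 6 (2.29-fold) and day 9 (2.08-fold), though at 129.8% and 169.9% of the Thy-1-positive cells, under the 2-fold limit, as a share of all peak score. It was lower in the SSEA-1-positive cells on day 12 (2.68-fold) and day 16 (4.16-fold), but on the share scale it was at 118% of D12S- on day 12 and 1.66-fold lower on day 16. With the gene divided into 3 equal parts from start to end, its iPSC peaks covered 57.7%, 26.7% and 13.7% of the parts, where D0 peaks had covered 82.8%, 97.3% and 100%.

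Fbn1 (fibrillin-1), the longest member at 207 kb, had the largest H3.3 sum of the list in D0 and had lost most of it by day 9 on the successful route. Its sums were 2311 at D0, 1101 at D3, 1222 at D6T-, 386 at D9T-, 51.1 at D12S+, 0 at D16S+, 7.17 in iPSCs and 0 in ESD3, with a single peak left in iPSCs. It thus stood at 52.9% of D0 on day 6, at 16.7% on day 9 and at 2.21% on day 12. On the unsuccessful route it remained at 1266 at D6T+, 1372 at D9T+, 1142 at D12S- and 369 at D16S-. On day 6, D6T- was at 96.5% of D6T+ (interval 91.8% to 101%), but at 54.6% as a share of all peak score. The fractions of day 9 differed by 3.55-fold (3.33 to 3.80) and those of day 12 by 22.4-fold (18.6 to 27.2), the latter by 7.05-fold on the share scale.

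Sparc and Thbs1, both secreted proteins that modulate cell-matrix contact, were lower in every fraction of the successful route than in its sorted counterpart, as were Fbn1 and Tagln. Sparc had 604 at D0, 351 at D3, 268 at D6T-, 153 at D9T-, 98.2 at D12S+, 36.2 at D16S+, 115 in iPSCs and 66.9 in ESD3. In the unsuccessful fractions Sparc had 426 at D6T+, 300 at D9T+, 388 at D12S- and 347 at D16S-, which placed all 4 between 300 and 426. On day 12 Sparc in D12S+ was at 25.3% of D12S-, but at 80.1% as a share of all peak score. Thbs1 had 470 at D0, 196 at D3, 78.1 at D6T-, 15.0 at D9T-, 0 at D12S+, 6.93 at D16S+ and 0 in both pluripotent lines. Thbs1 was thus at 3.19% of its D0 level on day 9, when Fbn1 was at 16.7% and Sparc at 25.3%. Its unsuccessful fractions held 207 at D6T+, 148 at D9T+, 150 at D12S- and 93.2 at D16S-, and the day 9 fractions were 9.84-fold apart (7.20 to 13.4).

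Postn, a matricellular protein of remodeling tissue, had 50.8 at D0, 7.91 at D6T+ and no listed H3.3 peak in the other 10 reprogramming libraries. Lox had 174 at D0, 69.1 at D3, 18.0 at D6T-, 15.1 at D9T-, 0 at D12S+, 6.93 at D16S+ and 0 in iPSCs and ESD3. Its unsuccessful fractions were low as well, at 34.0 at D6T+, 7.79 at D9T+, 12.1 at D12S- and 0 at D16S-. H3.3 over the cross-linking enzyme was thus low in both fractions from day 6, unlike Sparc or Fbn1. In D16S- no Lox peak was listed while D16S+ had 1, and Lox was the only member higher in the successful fraction of that day.

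The contractile genes differed in how long H3.3 was retained. Acta2 had 350 at D0, 98.5 at D3, 174 at D6T-, 77.1 at D9T- and no peak in D12S+, D16S+, iPSCs or ESD3. The unsuccessful fractions also held it, with 114 at D6T+, 123 at D9T+, 190 at D12S- and 87.4 at D16S-. On day 6 Acta2 was at 153% of D6T+ in D6T-, but at 86.5% on the share scale. Tagln had 284 at D0, 71.5 at D3, 44.7 at D6T-, 0 at D9T-, D12S+ and D16S+, 8.63 in iPSCs and 8.56 in ESD3. Its unsuccessful fractions were low from day 9, with 65.8 at D6T+, 8.46 at D9T+, 12.4 at D12S- and 18.3 at D16S-. Acta2 and Tagln therefore parted on the unsuccessful route from day 9, where D12S- stood at 54.3% of D0 for Acta2 and at 4.38% for Tagln. Peaks here ran on into neighbors, since 59.2% of the D0 peak length counted for Tagln and 22.4% of that for Acta2 lay outside their windows, which overlap Pcsk7 and Stambpl1. When each peak was counted only by its part inside the window, D3 stood at 42.2% of D0 for Tagln and at 34.7% for Acta2, against 25.2% and 28.2% for whole peaks. On that count D12S- stood at 10.1% for Tagln and 43.7% for Acta2. The day 6 values were 36.4% and 38.5% in D6T-, and 53.7% and 35.8% in D6T+, so Tagln was not the lower one in D6T+.

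Vim, the intermediate filament gene, was the member that exceeded its D0 level on the route. It had 297 at D0, 198 at D3, 371 at D6T-, 361 at D9T-, 144 at D12S+, 50.7 at D16S+, 34.6 in iPSCs and 53.0 in ESD3. In both Thy-1-negative fractions Vim was above its D0 level, and no other member was above D0 in any library of the successful route. As a share of all peak score, Vim was above D0 (155 parts per M) in D3 (175) and D12S+ (207) as well. The unsuccessful fractions had 291 at D6T+, 361 at D9T+, 414 at D12S- and 259 at D16S-, and D9T- was at 100.2% of D9T+ (interval 91.5% to 110%), but at 81.9% as a share of all peak score. The same change of scale turned D6T- from 127% of D6T+ to 72.1%. On day 12 Vim was 2.89-fold (2.55 to 3.27) lower in D12S+, but at 110% of D12S- as a share of all peak score.

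At the first time-point after induction, 7 of 9 members were lower by 2-fold or more in D3 than in D0, against 40.6% of all genes. Sparc (58.1% of D0) and Vim (66.6%) stayed above that limit, and the median member was at 40.3% against 58.2% for all genes. D3 also had fewer tags in peaks (11.3% against 19.1%), and as a share of all peak score 3 of 9 members were lower by 2-fold, against 24.7% of genes, with medians of 68.0% for members and 98.3% for all genes. On that scale Vim was above D0, at 113%. With MEF in place of D0 as the fibroblast library, 3 of 9 were lower, against 17.5% of all genes.

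The sorted fractions addressed whether the genes lost H3.3 along the successful route in particular. On day 6, 2 of 9 members (Postn and Thbs1) were lower by 2-fold or more in D6T-, against 8.25% of all genes, and Fn1 was higher by that fold. The call for Postn rested on 1 peak of 7.91 in D6T+. Among genes with at least 50 tags per 10 M in D6T+, 1 of 7 members was lower, against 4.56% of genes. The median member in D6T- was at 67.9% of D6T+, whereas the median of all genes was 179%. On the scale of peak score shares these medians were 38.4% and 101%, and 5 of 9 members were lower by 2-fold, against 15.3% of genes. On day 9, 3 of 8 members with a peak (Fbn1, Thbs1 and Tagln) were lower in D9T-, against 12.9%, and Fn1 was again higher, with medians of 56.8% for members and 118% for all genes. The call for Tagln rested on 1 peak of 8.46 in D9T+. Among genes with at least 50 tags per 10 M in D9T+, 2 of 6 members were lower, against 7.39% of genes. On the share scale 4 of 8 were lower, against 15.9% of genes, and Fn1 was higher by less than 2-fold on both days.

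On day 12, 8 of 8 members with a peak were lower in D12S+ than in D12S-, but so were 80.6% of all genes. The medians were 2.24% for members and 22.1% for all genes, and D12S+ held 6.93% of its tags in peaks against 22.0% in D12S-. As a share of all peak score 5 of 8 were lower, against 38.2% of genes, and on that scale Fn1 (118%) and Vim (110%) were higher in D12S+. On day 16, 7 of 8 members were lower in D16S+, against 69.5% of all genes, with medians of 7.44% and 21.7%. The exception was Lox. Among genes with at least 50 tags per 10 M in D16S-, 6 of 6 members were lower, against 81.9% of genes. On the share scale 6 of 8 were lower, against 44.6% of genes, with medians of 18.6% and 54.3%. The part of the lower enrichment of the D12S+ and D16S+ libraries in these differences was not tested beyond the second scale.

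**Figure D2:**
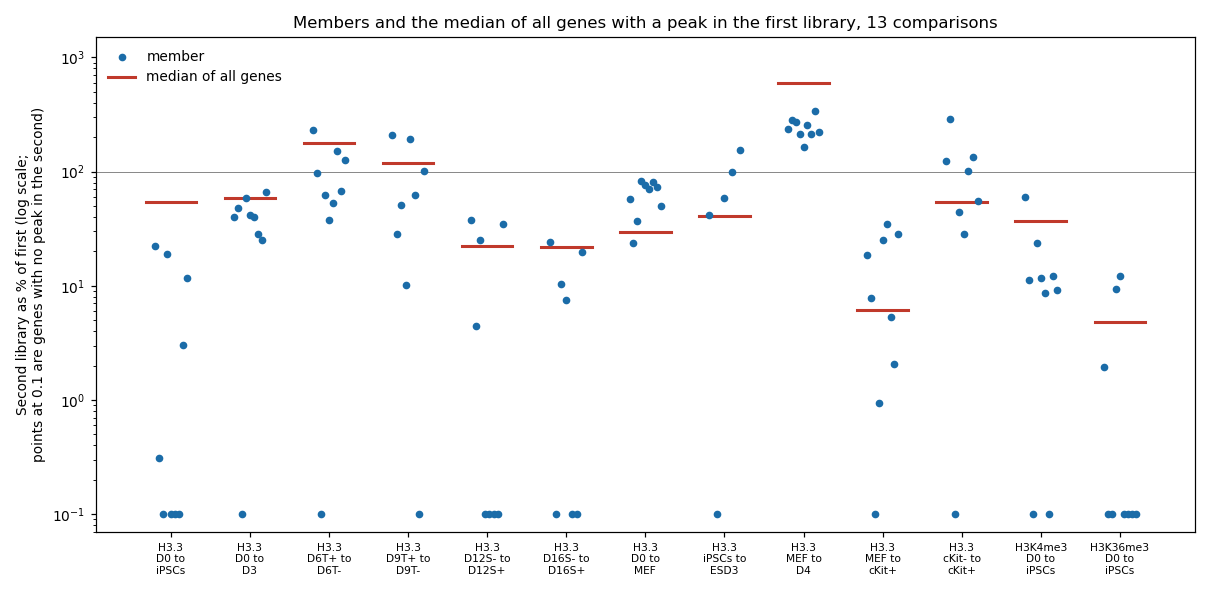
Sum in the second library as a percentage of the first (vertical axis, logarithmic) for members with a peak in the first library (points) in each of 13 comparisons (horizontal axis), beside the median of all genes with a peak in the first library (line). Points at 0.1 have no peak in the second library, as for Postn, Thbs1, Lox and Acta2 from D0 to iPSCs, and in the step from MEF to D4 all 9 members lie below the median of all genes.

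Libraries of like cells give a measure of how far apart sums can lie without conversion. Between D0 and MEF, the unconverted fibroblasts of the 2 systems, 2 of 9 members (Fbn1, 4.25-fold, and Postn, 2.73-fold) were 2-fold apart or more, against 74% of all genes. All 9 were lower in MEF, at a median of 70.8% of D0, while the median of all genes was 29.7%. As a share of all peak score 7 members were instead higher in MEF, with a median of 177% of D0 for members and 74.1% for all genes, and 2 of 9 (Sparc and Acta2) were 2-fold apart, against 52.8% of genes. Between iPSCs and ESD3, 2 of the 5 members with a peak were 2-fold apart, against 64.7%: Fn1 (276 and 115) and Fbn1 (7.17 and 0). On the share scale 2 of 5 (Fbn1 and Vim) were, against 52.4%. Differences of 2- to 4-fold between single libraries are therefore of a size also seen between libraries of like cells.

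Late on the route more members had an H3K4me3 peak than an H3.3 peak, with 7 against 4 in D12S+ and 7 against 5 in iPSCs, while D16S+ had 5 of each. All genes showed an excess too, with an H3K4me3 peak on 66.0% and an H3.3 peak on 50.3% of them in D12S+, 51.7% and 43.5% in D16S+, and 69.1% and 61.3% in iPSCs. An H3K4me3 peak within 1 kb of the start was present for 9 of 9 members in D0 and D3. The count was 7 at D6T-, D9T- and D12S+, 4 at D16S+ and 7 in iPSCs. The share of all genes with such a start-site peak was also lowest at D16S+, at 43.6%. The other H3K4me3 libraries had shares between 60.3% (D12S+) and 64.1% (D0), with 62.3% in iPSCs. From D0 to iPSCs the H3K4me3 sum was lower by 2-fold or more on 8 of 9 members, against 71.2% of all genes, with medians of 11.3% for members and 37.0% for all genes. On the share scale 7 of 9 were lower, against 16.3% of genes.

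Fn1 was the member below the 2-fold limit for this mark, with 413 at D0, 252 at D3, 402 at D6T-, 406 at D9T-, 151 at D12S+, 72.1 at D16S+ and 246 in iPSCs. As a share of all peak score Fn1 was instead higher in iPSCs, at 142% of D0. On that scale Fn1 was also above D0 (136 parts per M) in D9T- (171) and D12S+ (163), and below it in D3 (110) and D6T- (116). The low value of Fn1 in D16S+ came from a library with 3.71% of its tags in peaks, against 30.4% in D0. Its H3K4me3 sums in D6T- and D9T- were thus near that of D0 when its H3.3 was at 24.1% and 27.3%. Vim had the largest H3K4me3 sum in D0, 637, over a domain that covered 82.6% of its window, and then 459, 665, 452, 107, 24.0 and 58.6 at D3, D6T-, D9T-, D12S+, D16S+ and iPSCs. The H3K4me3 of Vim in D6T- was at 104% of D0 in tags, with overlapping intervals (638 to 693 and 608 to 667), and at 91.2% on the share scale.

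Thbs1 kept a start-site peak in iPSCs, at 55.1 against 473 at D0, although it had no H3.3 peak there. Lox likewise held 23.2 in iPSCs against 269 at D0. Sparc stood at 526 at D0 and 124 in iPSCs, and Fbn1 at 455 and 51.6. The contractile genes and Postn had the lowest H3K4me3 sums in D0, and like Thbs1 in D16S+ they had no peak in some libraries of the route. Acta2 had 114 at D0, 73.1 at D3, 89.1 at D6T-, 58.1 at D9T-, 8.65 at D12S+ and 0 at D16S+ and iPSCs. Tagln had 81.0 at D0, 20.6 at D3, none from day 6 to day 16 and 9.89 in iPSCs, and Postn had 56.7 at D0, 5.56 at D3 and 0 thereafter. Postn and Tagln were thus without a listed H3K4me3 peak in D6T- and D9T-, where the other 7 members had one.

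**Figure D3:**
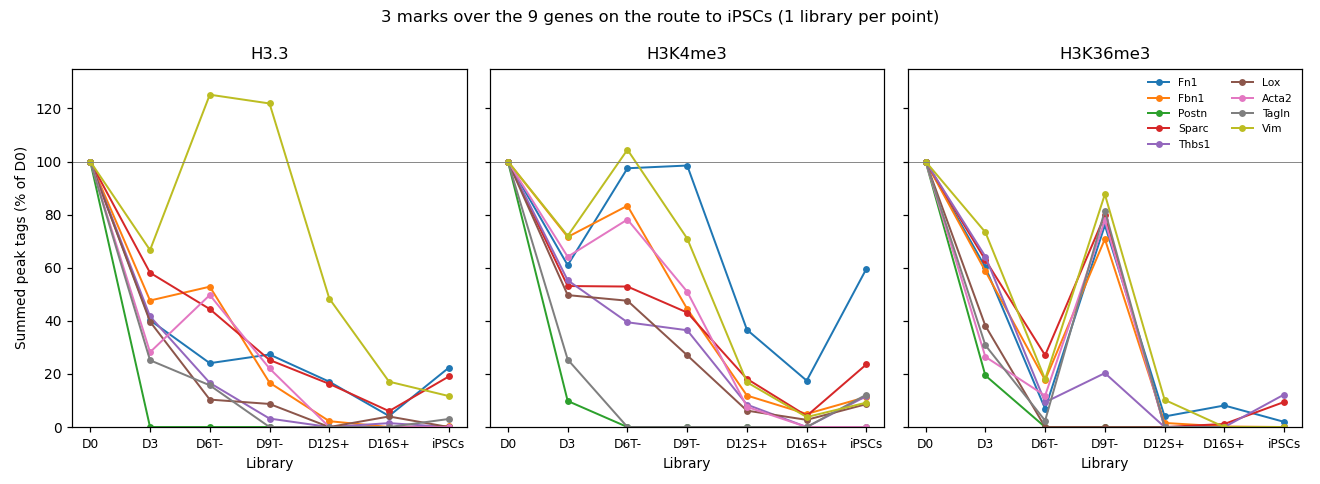
Summed peak tags of H3.3, H3K4me3 and H3K36me3 (panels) as a percentage of D0 (vertical axis, linear) for the 9 genes in the 7 libraries of the successful route (horizontal axis), 1 library per point. The H3K4me3 of Fn1 lies near 100% in D6T- and D9T- and at 59.6% in iPSCs, and the H3K36me3 panel shows low values in D6T- and high values in D9T- for 6 of the 9 genes.

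H3K36me3 peaks covered 49.6% (Tagln) to 95.7% (Fn1) of the members' windows in D0. With each gene divided into 3 equal parts, it lay over at least 91.4% of the last part, and over 0 (Tagln) to 91.1% (Fn1) of the first part. H3K4me3 had the opposite slope, covering more of the first part than of the last in all 9 genes. From D0 to iPSCs the sum was lower by 2-fold or more on 9 of 9 members, but also on 88.9% of all genes, with medians of 0 and 4.83%. Measured as shares of peak score, 7 of 9 were lower, against 46.1% of genes, and Sparc (103%) and Thbs1 (133%) were then higher in iPSCs.

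In D9T-, the H3K36me3 library with the largest share of tags in peaks, the members differed from one another. Fn1 had 2548 at D0, 1534 at D3, 176 at D6T-, 1937 at D9T-, 102 at D12S+, 207 at D16S+ and 49.7 in iPSCs. Fbn1 had 4012, 2355, 709, 2840, 61.7, 8.34 and 0 in the same libraries. Sparc (848 at D0, 676 in D9T-), Tagln (473 and 386) and Vim (281 and 246) also kept most of their sum in D9T-. Acta2 had 592 and 460, but 54.2% of its peak length in D0 and 82.5% in D9T- lay outside the window. Counted inside the window, Acta2 in D9T- was at 28.7% of D0, whereas Tagln, with 82.3% and 76.2% of peak length outside, was at 109%. Postn (655 at D0, 127 in D3) and Lox (500 and 191) had no H3K36me3 peak in D6T- or in any later library, and Thbs1 stood at 76.2 in D9T- against 375 at D0. With D9T- in place of iPSCs, 3 of 9 members were therefore lower than D0 by 2-fold or more, against 14.8% of all genes. In tags, D6T- was at 0 (Postn and Lox) to 27.0% (Sparc) of D0 for the 9 genes. That library held 7.50% of its tags in peaks, against 31.3% in D0. Its listed fragment length was 444 bp, where the other H3K36me3 libraries had 120 to 158 bp. The share scale is not given for these values along the route, so the part of the lower enrichment in them was not tested.

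Both gene-body marks can be read together on day 9. Tagln had an H3K36me3 peak over the whole last part of the gene in D9T- without a listed H3.3 peak, whereas Postn had neither mark. That H3K36me3 covered 0, 15.2% and 100% of the 3 parts of Tagln, from first to last. The window of Tagln overlaps Pcsk7, and most of the peak length counted lay outside the window. Which of the 2 genes the signal belongs to was not tested. Lox had no H3K36me3 peak and an H3.3 sum of 15.1, and Vim had 87.6% of its D0 sum for H3K36me3 and 122% for H3.3. The comparison rests on 1 library per mark, and the lists of H3.3 and H3K36me3 used different limits of fold over input (2 and 4).

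**Figure D4:**
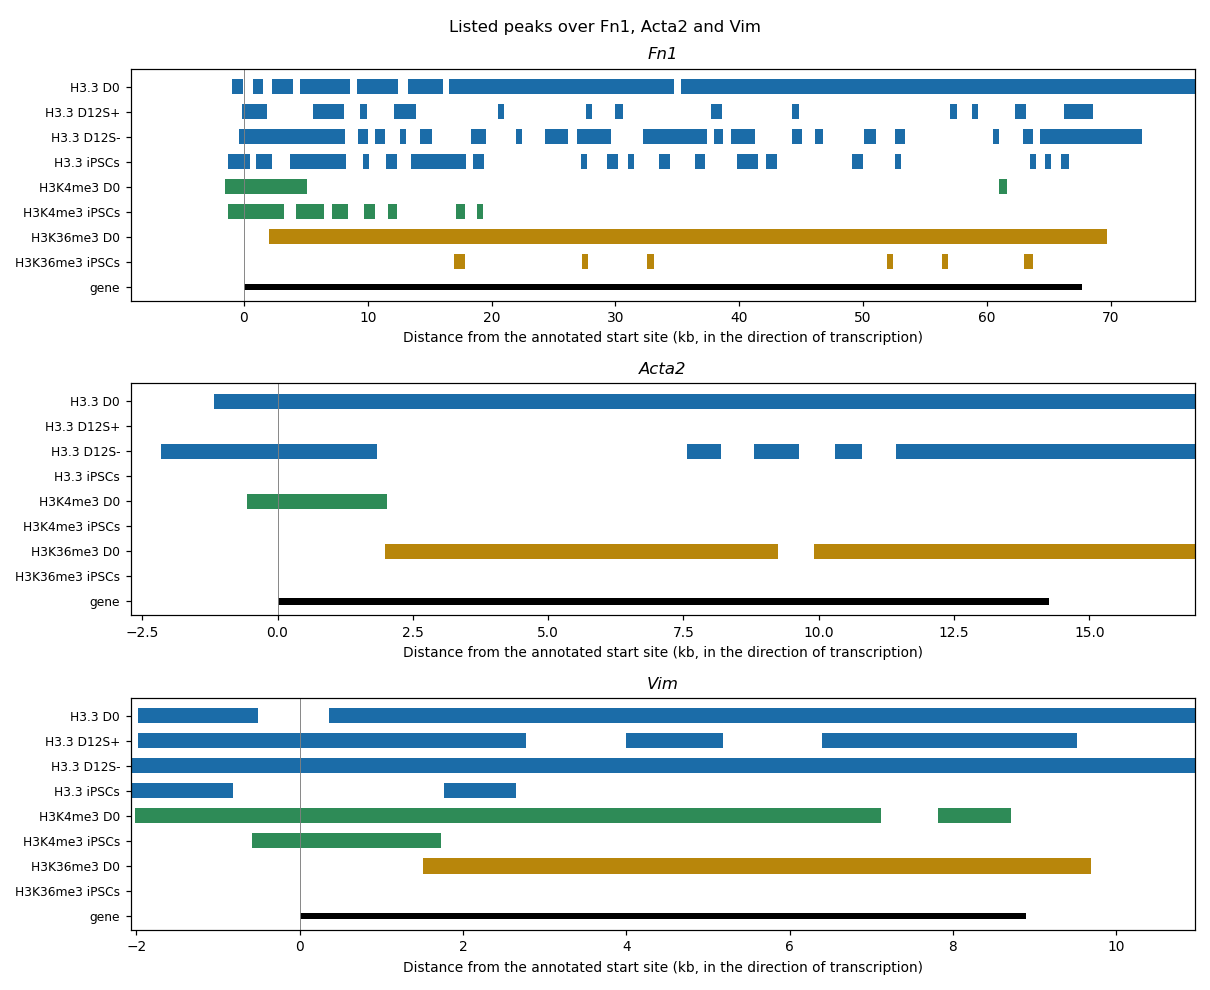
Listed peaks of 3 marks (bars, 1 row per library) over Fn1, Acta2 and Vim (black bar, the gene), by distance from the annotated start site in kb along the direction of transcription, with bars cut off at the panel edges. Acta2 has no H3.3 bar in D12S+ or iPSCs but 5 at D12S-, and the H3K4me3 of Vim in D0 covers most of the gene.

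In transdifferentiation, H3.3 was higher by 2-fold or more in D4 than in MEF on 8 of 9 members, against 95.2% of all genes, but 9 of 9 were lower in D4 as a share of all peak score. On that scale 0 of 9 were higher by 2-fold, against 46.9% of genes. Sums of tags were 704 and 1645 for Fn1, 543 and 1544 for Fbn1, 18.6 and 50.4 for Postn, 502 and 1069 for Sparc, and 360 and 593 for Thbs1. Lox had 123 and 313, Acta2 284 and 611, Tagln 209 and 708, and Vim 148 and 329. The median member was at 234% of MEF in D4, whereas the median of all genes was 600%, and all 9 members lay below that median. On the share scale the medians were 48.0% for members and 123% for all genes. D4 peaks were broad, with a single peak on 8 of the 9 genes (38 on Fbn1), and that on Tagln was 36.7 kb long, 77.1% of it outside the window. When each peak was counted only by its part inside the window, 4 of 9 members were higher by 2-fold, against 91.8% of all genes. With D0 in place of MEF 1 of 9 was higher, against 64.4%.

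At the end of transdifferentiation, H3.3 was lower by 2-fold or more in cKit+ than in MEF on 9 of 9 members, against 74.9% of all genes, with medians of 7.82% for members and 6.17% for all genes. Among genes with at least 50 tags per 10 M in MEF, 8 of 8 members were lower, against 91.5% of genes. As a share of all peak score 5 of 9 were lower, against 51.6% of genes, and Thbs1 (116%), Lox (160%) and Vim (132%) were then higher. Between 0 and 7.82% remained on 5 members. Sparc was at 4.69 in cKit+ (0.935% of MEF), Tagln at 4.36 (2.08%), Acta2 at 15.0 (5.30%), Fbn1 at 42.5 (7.82%) and Postn at 0. Between 18.7% and 34.5% remained on the other 4. Fn1 was at 132 (18.7%), Thbs1 at 89.8 (24.9%), Vim at 42.3 (28.5%) and Lox at 42.5 (34.5%). Per kb of window, Thbs1, Vim, Lox and Fn1 ranked between the 98.6th and 99.96th percentiles of all genes in cKit+, a library in which 33.3% of all genes had a peak.

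The negative fraction, cKit-, was close to cKit+ for several members. Against cKit-, 3 of 9 members (Postn, Sparc and Thbs1) were lower by 2-fold or more in cKit+, against 36.5% of all genes, and 2 (Fbn1 and Tagln) were higher. On the share scale 2 of 9 (Postn and Thbs1) were lower, against 29.9%. Thbs1 had 319 in cKit- from a single 13.9 kb peak, a value 3.55-fold (3.27 to 3.87) above cKit+ and 88.6% of that in MEF. Fn1 had 106 in cKit- and 132 in cKit+, Lox 42.1 and 42.5, and Vim 76.5 and 42.3. Sparc (10.7 and 4.69), Acta2 (11.3 and 15.0) and Tagln (0 and 4.36) were low in both. Fibroblast markers had an H3.3 peak on 5 of 10 genes in cKit+ and 7 of 10 in cKit-, with summed levels of 191 and 261 against 2010 in MEF, and the part of remaining fibroblasts or of stromal cells was not tested.

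**Figure D5:**
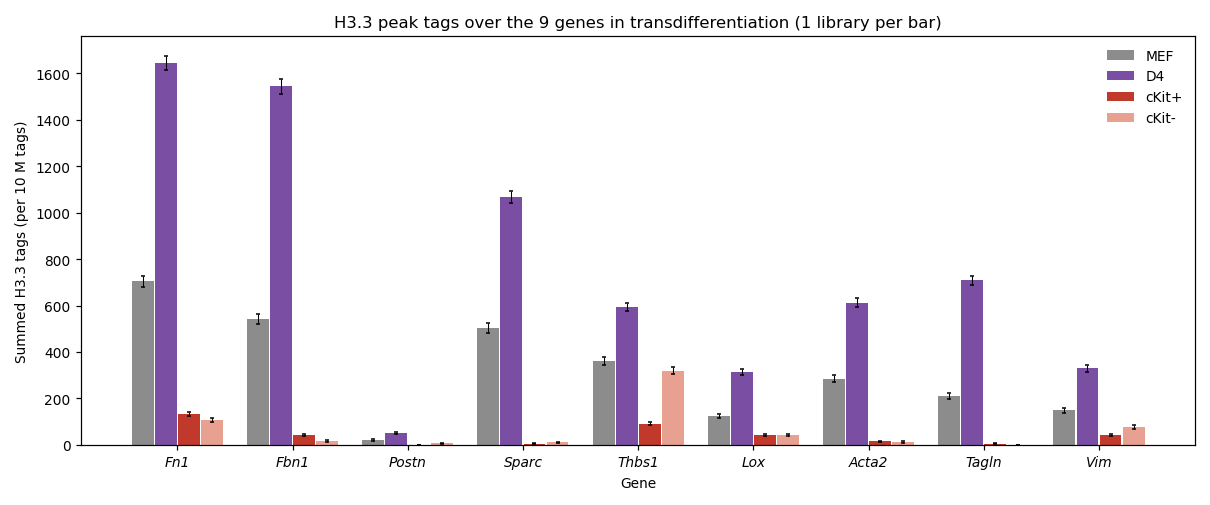
Summed H3.3 peak tags per 10 M tags (vertical axis, linear, from 0) over the 9 genes (horizontal axis) in MEF, D4, cKit+ and cKit-, with 95% Poisson intervals of counting error. D4 is the highest bar for all 9 genes, and Thbs1 in cKit- (319) stands near its MEF value (360).

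Sparc and Thbs1 changed places between the 2 destinations. In iPSCs Sparc kept 115 and Thbs1 had no peak, whereas in cKit+ Sparc had 4.69 and Thbs1 89.8. Fbn1, Lox, Acta2, Tagln and Postn were at or below 42.5 in iPSCs, ESD3, cKit+ and cKit-. The 2 systems differ in their libraries as well as in their cells, and these cannot be told apart.

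Wider lists of matrix and of contractile genes set the 9 members among their relatives, and both lists were written with results of these data already known. Of 34 other matrix genes with an H3.3 peak in D0 or iPSCs (36 listed), 28 were lower in iPSCs by 2-fold or more, 2 were higher and 4 were neither, with a median of 6.03% of D0. The 3 with the most H3.3 in D0 were Tnc (tenascin-C, 1975 at D0 and 5.22 in iPSCs), Hspg2 (perlecan, 1474 and 443) and Loxl2 (a lysyl oxidase paralog, 1134 and 0). Of 29 other contractile and actin genes (30 listed), 23 were lower, none was higher and 6 were neither, with a median of 20.9%. The leading genes were Cald1 (caldesmon, 2239 and 120), Myh9 (non-muscle myosin heavy chain, 1878 and 863) and Actn1 (alpha-actinin-1, 1778 and 435). Acta2 and Tagln, with 0 and 3.04% of D0, thus lay below the median of the broader contractile list. Both list medians can be read against 54.1% for all genes.

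Among the marker lists, Twist2 (859 in D0), Prrx1 (773) and Col1a2 (707) led the fibroblast genes, and none of them had an H3.3 peak in iPSCs. The leading pluripotency genes in D0 were Dppa5a (32.8 at D0 and 58.1 in iPSCs), Esrrb (24.8 and 571) and Tdgf1 (6.31 and 115). Hematopoietic Gata2 (103 and 48.3), Itga2b (101 and 21.6) and Cd34 (73.3 and 0) and endothelial Pecam1 (171 and 339), Cdh5 (116 and 0) and Tek (40.2 and 22.3) had H3.3 in D0 too. Of 5 endothelial markers 4 had a peak in D0 and 2 in iPSCs, and of 5 skeletal muscle markers 1 had one in each. In D0, Acta1, the skeletal muscle actin, stood at 13.2, and Myod1 and Myf5 had no peak, against 350 for the smooth muscle actin Acta2.

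The profile that the 9 genes share was compared with that of other genes over the 12 reprogramming H3.3 libraries, as the Pearson correlation of log2 (sum + 1) with the mean over the members. The members themselves, which are part of that mean, correlated with it at 0.60 (Postn) to 0.95 (Acta2), with Fn1 at 0.68. Of 13231 other genes with a peak in at least 6 libraries, the closest were Mprip (0.987), which encodes a myosin phosphatase-interacting protein, Dld (0.987, a subunit of the pyruvate dehydrogenase complex), Sec13 (0.987, a vesicle coat and nuclear pore protein), Pla2g4a (0.987, cytosolic phospholipase A2) and Ifit2 (0.985, an interferon-induced protein). All 12 points share the depth and enrichment of their libraries, so these values are descriptions.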

How the data were processed

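ChIP-Seq peak lists of 30 libraries were used. Per the study's methods and the submitters' processing notes, reads were mapped to mm9 with STAR and peaks were called with HOMER, versions not given in the sources used here. Per the file headers, the authors ran findPeaks in histone style (initial peak size 500 bp, Poisson p-value over input at most 0.0001, fold over input of 2 for H3.3 and 4 for the other marks) for each library separately, keeping 1 tag per position in the reprogramming libraries (2 in H3.3 of iPSCs) and 2 to 4 in transdifferentiation. The signal of a peak in the deposited lists is a tag count that the authors normalized to a library of 10 M tags, neither divided by length nor reduced by input. The fold over input in the deposited lists is a ratio, used here for a stricter limit and for subtracting input. Input libraries were not analysed on their own.

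Peaks touching a gene of GENCODE vM1 (22238 protein-coding symbols, the longest entry kept where a symbol occurred more than once) or its 1 kb flanks were summed with Python 3.11.15, numpy 2.4.6, pandas 2.3.3 and scipy 1.17.1, and figures were drawn with matplotlib 3.10.9. A peak that spans several genes counts in full for each. With 1 library per group, a gene was called where 2 sums differed by 2-fold or more, among genes with a peak in either library. Medians of percentages are over genes with a peak in the first library. The code was tested on simulated data. Alternatives were the share of all peak score, an equal number of top peaks, peaks with at least 0.5 of their length inside the window, peaks prorated to the window, a stricter fold over input, subtraction of input and a call at 4-fold.

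The 9 members and the other lists were chosen with earlier results of these data known. Named besides the members were the 5 genes with the highest correlation to their mean profile and the 3 genes of each list with the highest H3.3 sum in D0. Depth was 13.2 to 91.8 M tags per library.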

Additional observations from a re-analysis of the deposited data

Results flagged for a closer look

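The first step of the 2 conversions went in opposite directions for all 9 members: H3.3 sums were lower in D3 than in D0, at 0 to 66.6% of D0, and higher in D4 than in MEF, at 165% to 338% of MEF. This was marked because every member moved one way in one system and the other way in the other. The medians of all genes moved in the same 2 directions, at 58.2% of D0 in D3 and 600% of MEF in D4. By 2-fold or more, 7 of 9 members were lower in D3, against 40.6% of all genes. In D4, 8 of 9 were higher by that fold, against 95.2%. The difference was not tested, since each group had 1 library. D3 had 11.3% of its tags in peaks against 19.1% in D0, and D4 had 37.2% against 7.64% in MEF. As a share of all peak score, D4 was at 33.8% to 69.5% of MEF on the 9 members, and D3 was below D0 on 8 of 9, so that 8 members were lower at both first steps. Vim, at 113% of D0 in D3 and 45.5% of MEF in D4, still went in opposite directions on that scale.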

How the results depend on the processing

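Across the alternatives, 75 of 99 counts of called members stayed within 1.5 times the reported count, and the counts that did not are given here. On the share of all peak score, members called were 3 of 9 in D3, 5 in D6T-, 5 in D12S+, 0 in D4 and 5 in cKit+. A call at 4-fold left 1 in D3, 1 in D6T-, 5 in D12S+, 1 between D0 and MEF, 1 between iPSCs and ESD3, 0 in D4 and 1 between the cKit fractions. With an equal number of top peaks, 3 members kept an iPSC peak and 1 was called in D6T-. With a stricter fold over input, 2 kept an iPSC peak, and 5 were called in D9T-, 4 between iPSCs and ESD3 and 5 for H3K36me3. Prorating left 1 between D0 and MEF and 4 in D4, and subtracting input gave 4 between D0 and MEF. Added after seeing the data, MEF in place of D0 gave 3 for D3, D0 in place of MEF gave 1 for D4, and D9T- in place of iPSCs gave 3 for H3K36me3. The cause of these changes was not tested.

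For single members, 456 percentages were recomputed. Among differences of 2-fold or more, 19 changed direction. On the share of all peak score these were Fn1 (118%) and Vim (110%) in D12S+, Thbs1 (116%), Lox (160%) and Vim (132%) in cKit+, and Sparc (103%) and Thbs1 (133%) for H3K36me3 in iPSCs. In D4 on that scale they were Fn1 (48.0%), Fbn1 (58.4%), Postn (55.6%), Sparc (43.7%), Lox (52.2%), Acta2 (44.2%), Tagln (69.5%) and Vim (45.5%). With at least 0.5 of a peak's length required inside the window, Postn and Tagln were at 0 in D4, and prorating gave Postn 99.7%. A stricter fold over input put Fn1 in ESD3 at 238% of iPSCs. Among smaller differences, 15 changed direction on the share of all peak score: Vim in D3 (113%), D6T- (72.1%) and D9T- (81.9%), Acta2 in D6T- (86.5%), Thbs1 in D4 (33.8%), H3K4me3 of Fn1 in iPSCs (142%), Sparc (110%) and Tagln (187%) in ESD3, and 7 members in MEF against D0 (125% to 207%). Under the other alternatives 11 percentages of smaller differences did so. No paired analysis was possible because each group has 1 library and no test was made. Weak enrichment in cKit+, cKit-, D16S+ and the late H3K36me3 libraries limits what a missing peak can show.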
